A study of Acanthocheilonema viteae with 2 samples.

Results

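The microRNAs described here are 8 of the 384 entries deposited for small RNA that adult Acanthocheilonema viteae released into culture medium. A. viteae is a filarial nematode of rodents, and the study compared what females and males secrete. The entries were taken by a list of names that joins the nematode-named miR-2 and miR-250 entries with predicted candidates (names starting with PC-) of the same seed, the bases 2 to 8 by which a microRNA pairs with its targets. All 8 held that seed. There were 2 samples, 1 library from female and 1 from male adults, and the labels do not say how many worms or cultures each one pooled. Per the labels' protocols, both sexes were kept apart in RPMI-1640 medium with penicillin, streptomycin and glutamine for up to 3 weeks, and the RNA came from a washed ultracentrifuge pellet of medium passed through 0.22 µm pores. With no replicate there was no test between the sexes: every ratio below compares these 2 libraries, and every interval covers counting error only. More release of a microRNA by a worm and less release of the other RNA in the same pellet cannot be told apart from shares.

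MicroRNAs of the miR-2 family occur in protostome animals such as nematodes and insects and are not known from mammals. In Drosophila, their seed pairs with a short element called the K box in target messages, and family members hold down pro-apoptotic genes. In many protostomes miR-2 genes lie in a cluster with miR-71. In Caenorhabditis elegans, miR-250 is grouped with miR-2 by its seed.

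The sequences are shown because the members are told apart by what follows the seed. They are written 5′ to 3′ as deposited, with T for U, and capitals mark the seed.
bma-miR-2a: tATCACAGccagctttgatgt
asu-miR-2a-3p: tATCACAGccagctttgatgtgc
bma-miR-2c_R+1_1ss1CT: tATCACAGcacgattcggctcg
PC-3p-1163_341: tATCACAGcacgattcggctcga
bma-miR-250_R-1_1ss20CT: aATCACAGccaactggtggttc
PC-3p-281_1188: cATCACAGgcccaatgcagcgagc
PC-3p-1225_324: cATCACAGgcccaatgcagcgaga
PC-3p-7656_58: cATCACAGgcccaatgcagc
PC-3p-2176_195, an entry with the seed that the list leaves out: cATCACAGgcccaatgcagcgagt

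The 8 members held 4 sequences once entries with the same first 20 bases were put together. The Ascaris-named asu-miR-2a-3p was bma-miR-2a with 2 more bases at the 3′ end. The candidate PC-3p-1163_341 was bma-miR-2c with 1 more base, so it was no separate sequence. The miR-250 entry stood alone. The other 3 candidates were forms of a single sequence that begins with C, called the C-first candidate below, and PC-3p-2176_195 was another form of it. No mammal-named entry of the 255 in the files held the seed at bases 2 to 8, no entry held it at another position, and no nematode-named 5p entry of miR-2 or miR-250 was listed.

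The libraries differed in size and makeup. Summed over the deposited entries there were 292740 female and 74881.3 male reads, so that 3 reads correspond to a share of 0.00102% in females and 0.00401% in males. Entries named after mammals took 6.71% of female and 51.4% of male reads, while nematode-named and candidate entries together (worm entries), whose total gives the worm scale below, took 93.3% and 48.6%. Because of this difference, each female-to-male ratio was 1.92 times lower on the worm scale than over total reads, and both are given. The part of the mammal-named reads in any difference between the libraries was not tested.

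The family made up 2.50% of all female reads (exact binomial 95% interval 2.45 to 2.56) and 3.62% of all male reads (3.49 to 3.76), from 7325 female and 2714 male reads. The female-to-male ratio of the sum was 0.690 (exact conditional 95% interval 0.661 to 0.722). On the worm scale the family took 2.68% of female and 7.46% of male reads, a ratio of 0.359 (0.344 to 0.376). On the authors' normalized values, where every ratio is 4.67 times that over total reads, the sum lay on the female side with a ratio of 3.22. The side of the sum thus depended on the scale. Over total reads the side also depended on the names. The 4 nematode-named members had a ratio of 0.460 there (0.436 to 0.486), and the 4 candidates 1.33 (1.22 to 1.44). On the worm scale these ratios were 0.240 and 0.690, both on the male side. On the authors' normalized values they were 2.15 and 6.19, both on the female side. Each set was mixed over total reads: the candidate PC-3p-1163_341 was at 0.498 and the nematode-named bma-miR-2a at 1.37.

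The miR-2a sequence was a minor part of the family in both libraries. The entry bma-miR-2a had 525 female and 98 male reads, 0.179% and 0.131% of all reads. Its ratio was 1.37 over total reads (1.10 to 1.72) and 0.713 on the worm scale (0.574 to 0.894). The longer form asu-miR-2a-3p, 23 bases against 21, had 12 female reads and 0 male reads. Its female share was 0.00410%, while 3 reads are 0.00401% of the male library and the exact upper limit of the male share is 0.00493%, so a difference between the libraries was not detectable at this depth. The longer form made up 2.23% of the miR-2a reads of the female library (1.16 to 3.87), and 0 of 98 in the male library.

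The miR-2c sequence was the most abundant of the family in the male library. The entry bma-miR-2c_R+1_1ss1CT had 2362 female and 1252 male reads, 0.807% of female (0.775 to 0.840) and 1.67% of male reads (1.58 to 1.77). Its ratio was 0.483 over total reads (0.450 to 0.517) and 0.251 on the worm scale (0.235 to 0.269). The longer form PC-3p-1163_341 had 372 female and 191 male reads, with a ratio of 0.498 over total reads (0.417 to 0.596) and 0.259 on the worm scale. Both forms were on the male side on these 2 scales, at nearly the same ratio, and on the female side on the authors' normalized values, with ratios of 2.25 and 2.33. In rank among the 129 worm entries, bma-miR-2c_R+1_1ss1CT stood at place 19 among female and place 8 among male reads.

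The miR-250 entry lay farthest to the male side. The entry bma-miR-250_R-1_1ss20CT had nearly as many male as female reads although the male library was 3.91 times smaller, with 685 female and 642 male reads. These were 0.234% of all female reads (0.217 to 0.252) and 0.857% of all male reads (0.793 to 0.926). Its ratio was 0.273 over total reads (0.245 to 0.304) and 0.142 on the worm scale (0.127 to 0.158), against 1.27 on the authors' normalized values. Its rank among the worm entries was 37 by female and 13 by male reads.

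The C-first candidate was the most abundant sequence of the family in the female library. Its main form PC-3p-281_1188, of 24 bases, had 2825.5 female and 437 male reads, 0.965% of female (0.930 to 1.00) and 0.584% of male reads (0.530 to 0.641). Its ratio was 1.65 over total reads (1.495 to 1.83) and 0.861 on the worm scale (0.778 to 0.955), and it held rank 16 among worm entries in both libraries. The form PC-3p-1225_324, which differs from it in the last base alone, had 396 female and 77 male reads and a ratio of 1.32 over total reads (1.03 to 1.70). The 20-base form PC-3p-7656_58 had 147.5 female and 17 male reads and a ratio of 2.22 over total reads (1.34 to 3.93), or 1.16 on the worm scale (0.700 to 2.04). The form outside the list, PC-3p-2176_195, again with another last base, had 111 female and 19 male reads and a ratio of 1.49 (0.913 to 2.58). All 4 forms were thus on the female side over total reads, the last with an interval that spans 1, and 3 of them were on the male side on the worm scale.

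**Figure D1:**
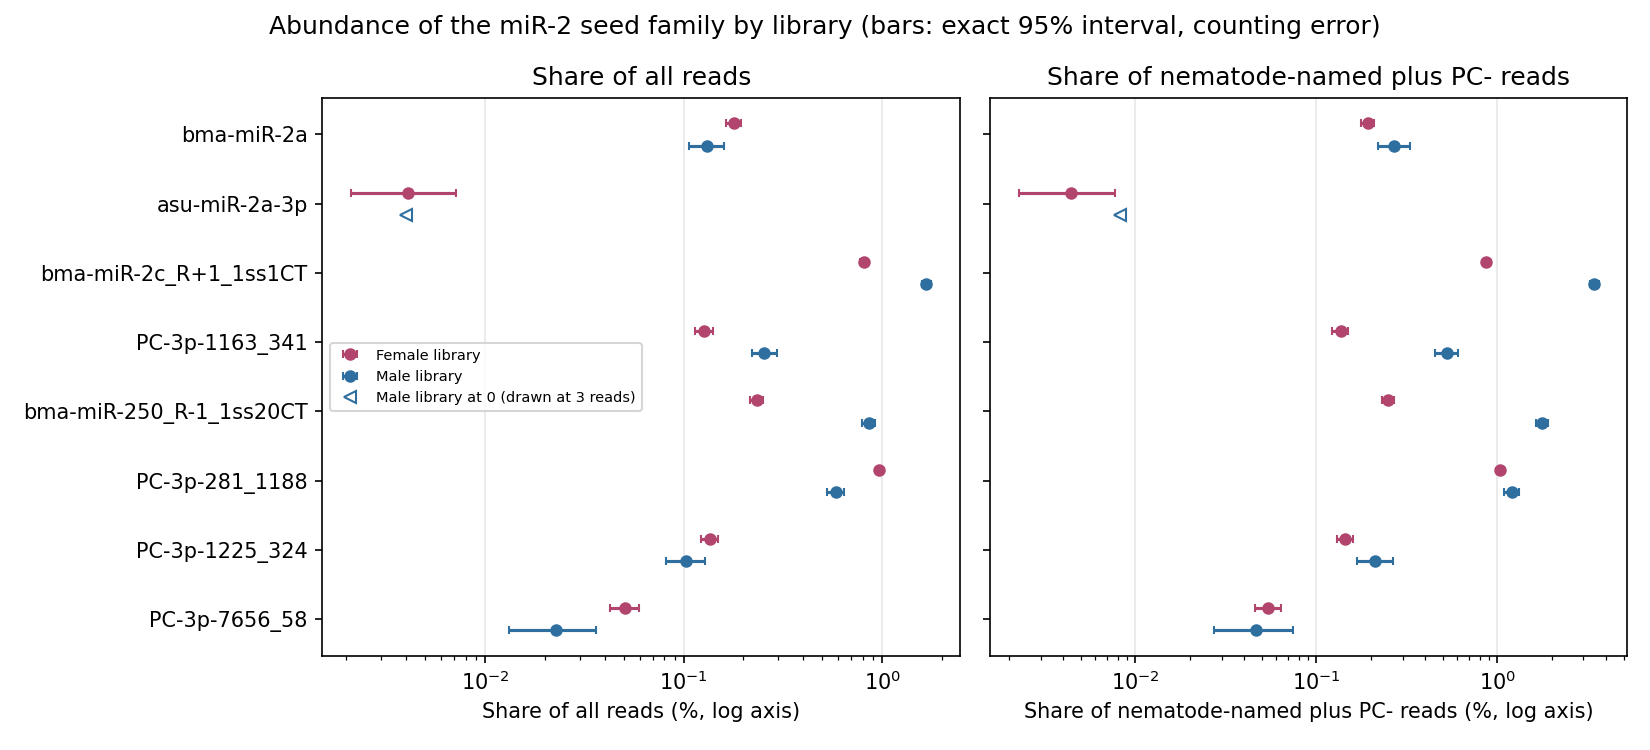
Share of each member in the female (upper point) and male (lower point) library, over total reads (left) and over nematode-named plus candidate reads (right), in percent on log axes, with exact 95% intervals for counting error. The miR-2c and miR-250 entries are higher in the male library in both panels, while PC-3p-281_1188 is at 0.965% in the female against 0.584% in the male library over total reads and changes side on the worm scale.

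Ordered by share, the female library ran from PC-3p-281_1188 through miR-2c, miR-250, bma-miR-2a, PC-3p-1225_324 and PC-3p-1163_341 to PC-3p-7656_58 and asu-miR-2a-3p. In that order PC-3p-1225_324 at 0.135% (0.122 to 0.149) and PC-3p-1163_341 at 0.127% (0.114 to 0.141) had overlapping intervals, and the other neighbours did not. In the male library the order was miR-2c, miR-250, PC-3p-281_1188, PC-3p-1163_341, bma-miR-2a, PC-3p-1225_324 and PC-3p-7656_58, with asu-miR-2a-3p at 0. There bma-miR-2a at 0.131% (0.106 to 0.159) and PC-3p-1225_324 at 0.103% (0.0812 to 0.129) overlapped. The leading member therefore differed, a candidate in females and miR-2c in males.

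Differences were called by size, at 2-fold or more, where either library had 10 reads or more, which all 8 members met. Over total reads 1 of the 8 members was called on the female side (PC-3p-7656_58) and 3 on the male side (both miR-2c forms and miR-250). By the same rule 35.7% of the 112 eligible worm entries were called on the female and 18.8% on the male side, and 18.5% and 62.0% of all 287 eligible entries. On the worm scale, 0 members were called on the female side and the same 3 on the male side, against 8.04% and 33.9% of the worm entries. On the authors' normalized values 7 members were called on the female side and 0 on the male side, against 85.7% and 5.36% of the worm entries. The 7 include asu-miR-2a-3p, which had 12 female and 0 male reads and whose male count was set to 3 reads. The 3 members on the male side are 2 sequences, since the miR-2c forms count as 1. Their share of the 8 is near that of the worm entries on the worm scale. Over total reads it is above that of the worm entries and below that of all eligible entries. Both miR-2c forms lay close to the 2-fold limit over total reads, and with intervals wholly beyond 2-fold only miR-250 was called there, against 9.82% of the worm entries on the male side. The 7 members read in both libraries had a median ratio of 1.32 over total reads and 0.685 on the worm scale, against 1.16 and 0.605 for the 86 worm entries read in both. These 7 entries are only 4 sequences, and 3 of them are forms of the C-first candidate, so the median leans on it. By sequence the ratios over total reads were 0.273 for miR-250, 0.485 for miR-2c, 1.40 for miR-2a and 1.62 for the C-first candidate.

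**Figure D2:**
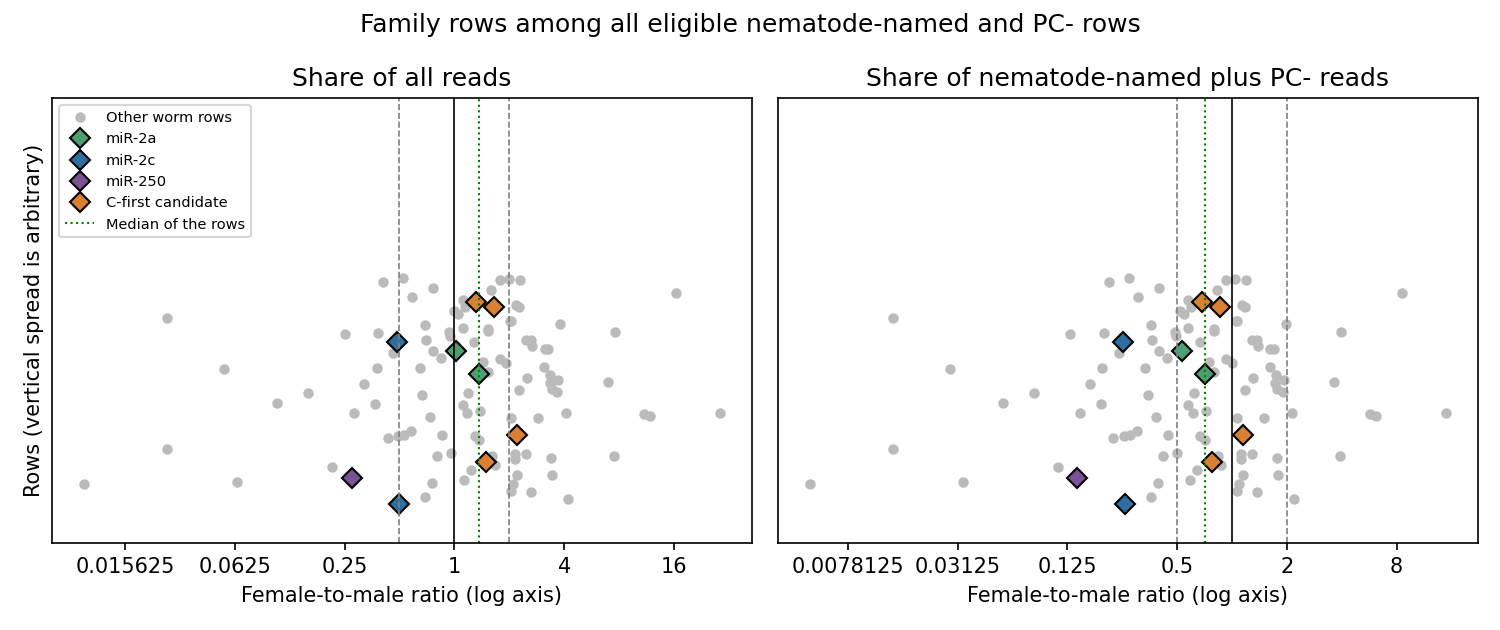
Female-to-male ratio of each of the 112 eligible worm entries on log axes, over total reads (left) and on the worm scale (right). Diamonds mark the 9 entries with the miR-2 seed by sequence, dashed lines mark 2-fold, the dotted line is the median of the entries, entries at 0 in a library are set to 3 reads, and the vertical spread has no meaning. The miR-2c and miR-250 entries lie left of the median while the C-first candidate lies close to it or to its right.

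In the ordering of the 112 eligible worm entries by ratio, 9 had a lower ratio than miR-250, 18 a lower one than bma-miR-2c_R+1_1ss1CT and 20 a lower one than PC-3p-1163_341. Below bma-miR-2a there were 56, below PC-3p-1225_324 54 and below PC-3p-281_1188 66. Below PC-3p-7656_58 there were 81. Relative to the median ratio of the 86 worm entries read in both libraries, which was 1.16 over total reads, miR-250 stood at 0.235, bma-miR-2c_R+1_1ss1CT at 0.415, bma-miR-2a at 1.18 and PC-3p-281_1188 at 1.42. These 4 values do not depend on how the libraries are scaled. The median of all 112 eligible worm entries was higher, 1.37 over total reads, and bma-miR-2a lay at that median. The family thus held sequences on both sides of the middle of the worm entries.

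**Figure D3:**
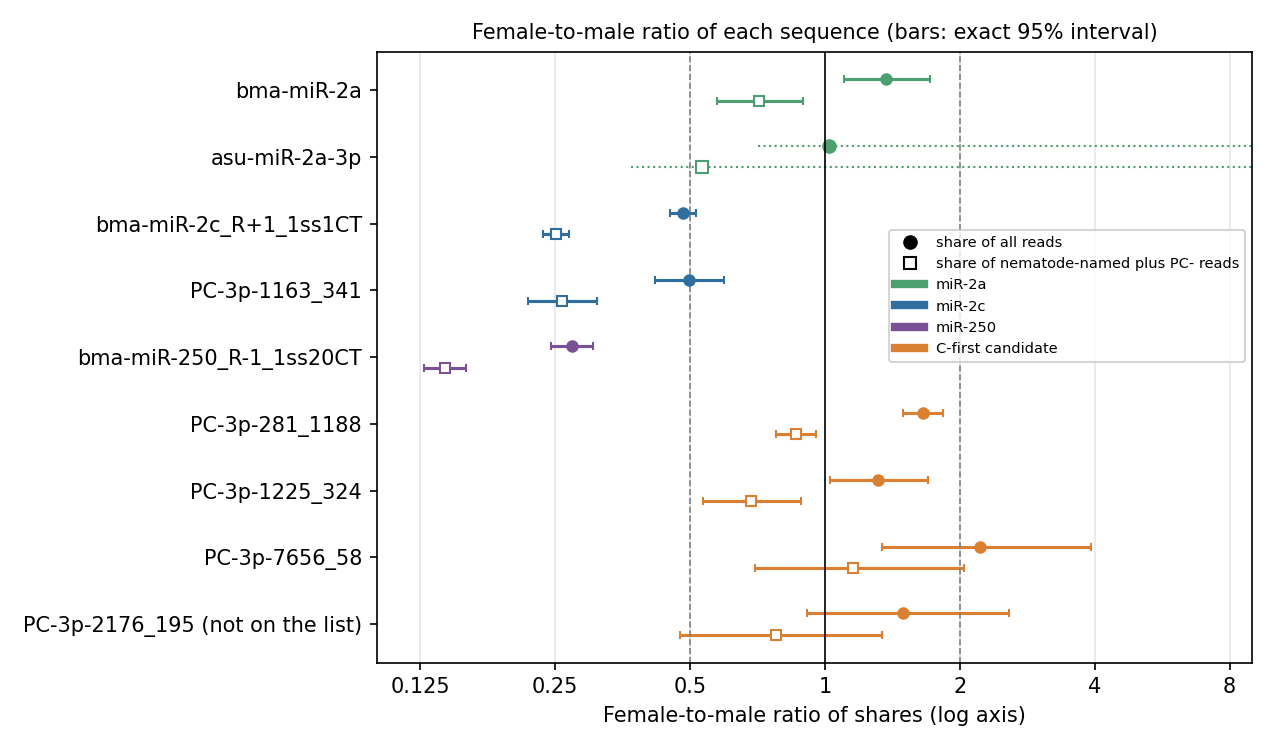
Female-to-male ratio of shares for the 8 members and PC-3p-2176_195 on a log axis, over total reads (filled circles) and on the worm scale (open squares), with exact conditional 95% intervals. Dashed lines mark 2-fold, colours mark the 4 sequences, and dotted lines mark an interval with no upper end. The male count of asu-miR-2a-3p, 0, is set to 3 reads. Over total reads the ratios run from 0.273 for miR-250 to 2.22 for PC-3p-7656_58. The miR-2c forms lie together at 0.483 and 0.498, while bma-miR-2a at 1.37 lies among the forms of the C-first candidate, from 1.32 to 2.22.

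The makeup of the family differed between the libraries, and this comparison needs no scale. The C-first candidate held 46.0% of the family's female reads (44.8 to 47.1) and 19.6% of its male reads (18.1 to 21.1). The miR-2c sequence held 37.3% of the female (36.2 to 38.4) and 53.2% of the male reads (51.3 to 55.1). For miR-250 the shares were 9.35% (8.69 to 10.04) and 23.7% (22.1 to 25.3), and for miR-2a 7.33% (6.74 to 7.95) and 3.61% (2.94 to 4.38). Per miR-250 read there were 4.92 reads of the C-first candidate in the female library and 0.827 in the male.

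**Figure D4:**
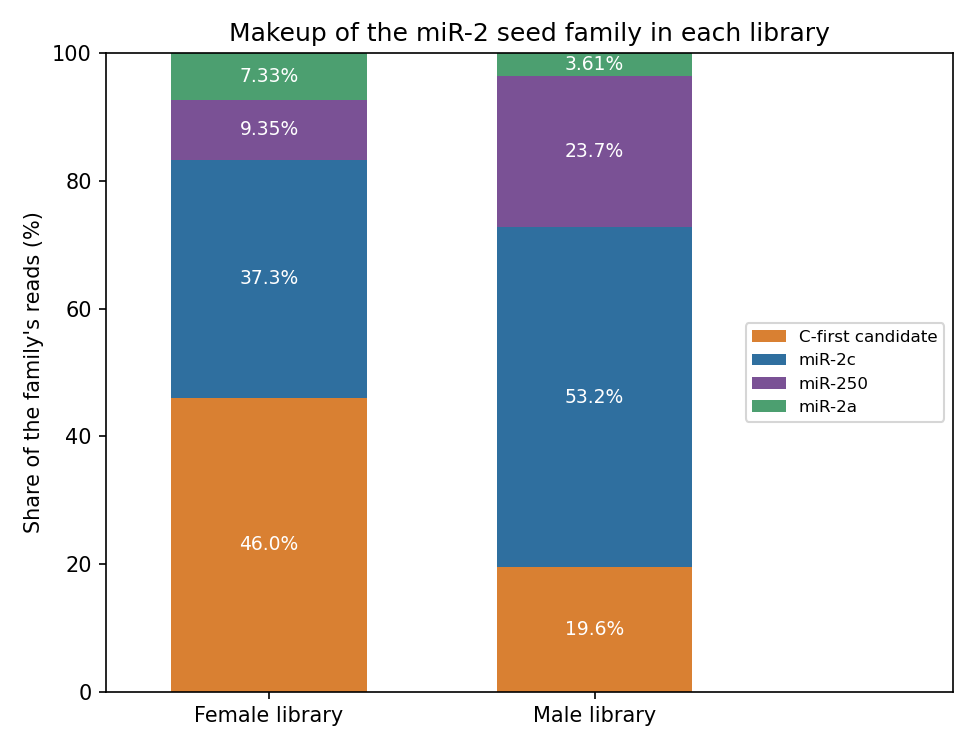
Share of the family's reads, over the 8 members, that each of the 4 sequences held in the female (left) and male (right) library, in percent. The C-first candidate fills 46.0% of the female and 19.6% of the male bar, and miR-250 fills 9.35% and 23.7%.

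Set against each other in 6 pairs, miR-2c and miR-250 both lay below the C-first candidate and miR-2a in ratio. The female-to-male ratio of the C-first candidate was 3.35 times that of miR-2c (exact conditional 95% interval 2.99 to 3.75) and 5.95 times that of miR-250 (5.15 to 6.87). For miR-2a it was 2.89 times that of miR-2c (2.30 to 3.66) and 5.14 times that of miR-250 (4.02 to 6.60). Within the male-side pair, miR-2c stood 1.78 times above miR-250 (1.56 to 2.02). The C-first candidate and miR-2a differed by 1.16 times, with an interval from 0.907 to 1.47 that spans 1. Intervals are not adjusted for the 6 pairs.

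**Figure D5:**
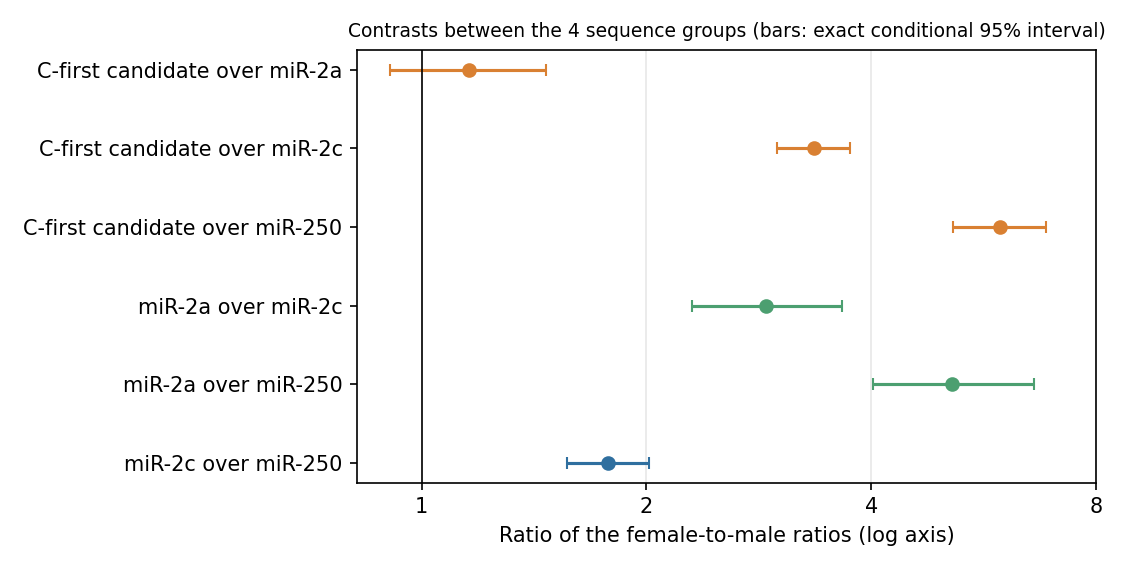
Female-to-male ratio of the first-named sequence divided by that of the second, on a log axis, with exact conditional 95% intervals for counting error, for the 6 pairs of the 4 sequences. The pair of C-first candidate and miR-2a spans 1, and the other 5 pairs lie above it, up to 5.95.

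The proportions of the forms of a sequence differed between the libraries by no more than counting error allows. The longer form of miR-2c made up 13.6% of the miR-2c reads among female (12.3 to 14.9) and 13.2% among male reads (11.5 to 15.1), and its ratio was 1.03 times that of the shorter form (0.853 to 1.25). Of the C-first candidate, PC-3p-281_1188 held 81.2% of female (79.9 to 82.5) and 79.5% of male reads (75.8 to 82.8), with PC-3p-2176_195 included in the total. PC-3p-1225_324 held 11.4% and 14.0%, PC-3p-7656_58 4.24% and 3.09%, and PC-3p-2176_195 3.19% and 3.45%. Against PC-3p-281_1188, the ratios of these 3 forms were 0.795 (0.608 to 1.05), 1.34 (0.803 to 2.40) and 0.904 (0.545 to 1.57) times as large, and each interval spans 1. The 2-fold call of PC-3p-7656_58 therefore rests on 17 male reads, and merging the forms left the candidate at a ratio of 1.62 over total reads (1.48 to 1.77), under the rule.

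As deposited, the candidate differed from the named members in first base, and its 24-base forms were longer than they were. Over the 127 distinct worm sequences of 18 to 26 bases (median 22), 23 had 24 bases or more, 18.1%, among them all but the 20-base form of the C-first candidate. A first base of C was found in 21 sequences, 16.5%, and T in 63, 49.6%. The miR-2a and miR-2c entries began with T and miR-250 with A. The suffix 1ss1CT in the miR-2c name reads as C replaced by T at the first base. The reference sequence behind that name would then also begin with C. The share of G and C was 62.5% in PC-3p-281_1188, 54.5% in bma-miR-2c_R+1_1ss1CT and 42.9% in bma-miR-2a, against a median of 45.5% in worm sequences.

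Past the seed, the C-first candidate shared few bases with the other 3 sequences, which shared more with each other. Compared without gaps from base 9, bma-miR-2a and miR-250 shared 6 of 13 bases (46.2%), the first 3 of them in a row. The pair of bma-miR-2a and miR-2c shared 5 of 13 (38.5%), and miR-2c and miR-250 shared 4 of 14 (28.6%). PC-3p-281_1188 shared 3 of 13 bases with bma-miR-2a (23.1%) and 3 of 14 with each of miR-2c and miR-250 (21.4%). Over 7934 pairs of worm sequences with different seeds the median was 25% and the 95th percentile 46.2%, and over 21 pairs that shared another seed but not the first 20 bases the median was 58.3%. In these pairs likeness past the seed did not go with likeness in ratio. The most alike entries, bma-miR-2a and miR-250, belong to sequences that differed 5.14 times in ratio. The pair nearest in ratio, miR-2a and the C-first candidate, shared 3 of 13 bases. With the longer form asu-miR-2a-3p in place of bma-miR-2a, miR-2c and miR-250 tied at 6 of 14 bases (42.9%). All these shares were at or below the 95th percentile for different seeds, so the order of likeness rests on few bases. With 4 sequences this is a description of these pairs.

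Among the 97 seeds of the worm entries, that of miR-2 stood on 9 entries, forms included, and that of miR-100 on 4. With entries of the same first 20 bases counted once, both seeds had 4 sequences. By reads the miR-2 seed was rank 5 in females and rank 4 in males. Over pairs of entries read in both libraries, log2 ratios of forms with the same first 20 bases differed by a median of 0.33 for the miR-2 seed (7 pairs, 0.05 to 0.75) and 0.31 for other seeds (5 pairs, 0.02 to 0.33). Pairs that shared the seed but not the first 20 bases differed by a median of 1.58 for the miR-2 seed (21 pairs) and 0.68 for other seeds (17 pairs, up to 6.15). The pairs share entries, so these medians are descriptions.

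The entries nearest to the family sum in ratio, among worm entries with at least 100 reads over both libraries, were bma-miR-5361 at 0.691 (343 female and 127 male reads), bma-miR-87b_R+1 at 0.697 (256 and 94 reads) and bma-miR-1175 at 0.665 (478 and 184 reads). Likeness here is the distance of a single log2 ratio between 2 libraries. The main miR-71 entry, bma-miR-71_R+4, of the microRNA whose gene is clustered with miR-2 in many protostomes, had 4993 female and 1281 male reads and a ratio of 0.997 over total reads (0.937 to 1.06), or 0.519 on the worm scale. On both scales its ratio lay below those of miR-2a and the C-first candidate and above those of miR-2c and miR-250. A longer form, str-miR-71-5p_R+1, had 82 female and 26 male reads, with a ratio of 0.807 (0.513 to 1.31), and the other arm, bma-mir-71-p3, had 40 female reads and 0 male reads.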

How the data were processed

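Small RNA from female and male secretions was sequenced in 1 library each from TruSeq small RNA preparations, per the labels' protocols. The authors deposited estimated counts (raw reads) per entry and a normalized signal. Per the file headers and values, the deposited signal equals the estimated counts multiplied by 1.09 in the female and by 0.915 in the male library. The aligner used, like the genome build, was not given in the sources used here. Parts of reads occur in 2 members, PC-3p-281_1188 and PC-3p-7656_58. No member shared its sequence with another entry.

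Counts were rounded for intervals only. Shares carry exact binomial (Clopper-Pearson) and ratios exact conditional binomial 95% intervals, computed with SciPy 1.17.1. A library at 0 was set to a floor of 3 reads. Neither kind of interval accounts for more than counting error, since each sex had 1 library. The reads carry no molecular identifiers, so copies of a molecule may be counted as separate reads. The size rule and the intervals were tested on simulated counts. TMM factors came from edgeR 4.0.16. Members and lists were chosen with earlier results of these data known. Entries named are the members, others with the seed, the miR-71 and mammalian miR-27, miR-128 and miR-23 lists, and the 3 nearest in ratio. The grouping by the first 20 bases, the length variants and the entries with 1 difference in the seed were chosen after seeing the data. Columns of per-sample values left unused numbered 0.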

Additional observations from a re-analysis of the deposited data

How the results depend on the processing

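The scale decided the side of the family and of members on both sides. The order of the sequences within the family does not depend on the scale. From total reads to the worm scale, bma-miR-2a moved from 1.37 to 0.713, PC-3p-281_1188 from 1.65 to 0.861 and PC-3p-1225_324 from 1.32 to 0.685. PC-3p-7656_58 stayed above 1 on every scale. The TMM factors were computed over all 384 entries, and the median-of-ratios factors over those read in both libraries. Of the 384 entries, 255 are mammal-named, and these were not left out. Over total reads 62.0% of the 287 eligible entries were called on the male side. The scale relative to the median worm entry rests on worm entries alone. The ratio of the family sum, 0.690 over total reads, was 0.359 on the worm scale, 4.60 by median-of-ratios, 3.71 by TMM factors, 3.22 for the authors' normalized signal, 0.809 without the most abundant entry of each library and 0.594 relative to the median worm entry. By membership it was 0.460 for nematode names, 1.33 for candidates, 0.868 without bma-miR-2c_R+1_1ss1CT and 0.533 without that and PC-3p-281_1188. With all 9 entries of the seed it was 0.696. Members called on the female side numbered 7 with median-of-ratios, TMM and the authors' values, against 1 over total reads. The 7 include asu-miR-2a-3p, whose male count of 0 was set to 3 reads. Calls on the female side numbered 0 on the worm scale, relative to the median worm entry, with intervals beyond 2-fold and with forms merged. Members called on the male side numbered 0 under the first 3 of these scales, against 3, and 1 without the most abundant entries or with intervals beyond 2-fold. Under median-of-ratios, TMM and the authors' values, miR-2c turned to 3.22, 2.59 and 2.25, PC-3p-1163_341 to 3.32, 2.68 and 2.33, and miR-250 to 1.82, 1.47 and 1.27. The read minimum left both counts as they were. Scaling to the median worm entry and merging forms were chosen after seeing the data. Depth limits asu-miR-2a-3p and PC-3p-7656_58, with 0 and 17 male reads.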

Other observations

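Worm candidates whose seed differs from that of miR-2 in 1 base were on the female side. PC-3p-457_786 had 910 female and 64 male reads, which gives a ratio of 3.64 over total reads (2.82 to 4.76) and 1.89 on the worm scale. It shared 9 bases past the seed, compared without gaps, with bma-miR-2c_R+1_1ss1CT, whose ratio was 0.483. PC-3p-26724_13 had 48 female reads and 0 male reads, 4.09-fold higher over total reads against a floor of 3 reads, with a 95% lower limit of 3.20. The mammal-named entry with 1 difference, mmu-miR-5119_R-1_1ss5TA, had 6 female and 61 male reads and a ratio of 0.0252 over total reads. These entries were chosen after their values were seen.

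Mammalian miR-27 and miR-128 hold the last 6 bases of the miR-2 seed at another position. That run begins at base 3 in the miR-2 members, at base 2 in both miR-27a 3p entries and at base 1 in age-miR-128_R-1, and miR-23a lacks it. The miR-27a 3p entries had 784.5 female and 864 male reads (cgr-miR-27a-3p_1ss19CT, ratio 0.232, 0.211 to 0.256) and 256.5 and 471 reads (cgr-miR-27a-3p, ratio 0.139, 0.119 to 0.163). The miR-23a entry had 506 and 987 reads (ratio 0.131), miR-128 had 0 female and 11 male reads, and the 2 entries of the miR-27a 5p arm had 0 female and 2.5 male reads each. Together the 6 entries of this list took 0.528% of female and 3.12% of male reads. The reverse complement of the seed was found in 2 entries, both named after mammalian miR-101.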
